A study of Arabidopsis thaliana with 10 samples.

Results

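Gene expression was compared between 2 kinds of *Arabidopsis thaliana* seeds with an extra paternal genome, which differ in the imprinted gene that the pollen parent had lost. Seeds with the *peg2* allele (3n *peg2*) came from pollen of *peg2 osd1* plants, and seeds with the *suvh7-1* allele (3n *suvh7-1*) from pollen of *suvh7-1 osd1* plants, with 2 libraries each. The other groups of the series were triploid seeds with paternal *adm-2* (3n *adm-2*), triploid seeds from *osd1* pollen alone (3n) and diploid seeds from Col pollen (2n), again with 2 libraries each. In all 5 groups the mothers were wild-type L*er* plants and the pollen donors were in the Col background, so that the mutations came from the father only. The *osd1* mutation, shared by the 4 triploid groups, lets pollen form without the second meiotic division and hence with a double genome. Each mutation was represented by a single insertion line, *peg2* by a SALK and *suvh7-1* by a GABI T-DNA line, and *osd1* had been crossed into Col from the Nossen background. Each library was made from the seeds of 20 siliques at 6 days after pollination (DAP), embryo, endosperm and seed coat together. Values are RPKM, read numbers corrected for gene length and for the depth of the library. The genes described are the 18078 of 33602 whose mean RPKM over the 4 libraries of 3n *peg2* and 3n *suvh7-1* seeds was at least 1. At the edge of that rule, *VEL3* had a mean of 1.0002 RPKM and *BIK1* of 1.0003, while *CYP78A9* at 0.9997 and AT2G36980 at 0.9998 were outside.

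In the seed the endosperm feeds the embryo, first as a syncytium of free nuclei and later as a cellular tissue. Additional paternal genomes keep the endosperm syncytial, and the seeds then usually collapse, an incompatibility known as the triploid block. *PEGs*, paternally expressed imprinted genes, are active mainly from the paternal allele in the endosperm, so that a mutation brought in by pollen removes most of their product. The study introduced *peg2* and *suvh7-1* into *osd1* to ask whether loss of either gene affects the triploid block, and the direct comparison below asks in which genes the 2 kinds of mutant triploid seeds differ.

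Summed RPKM ranged from 717904 to 743974 in the 4 libraries and from 24106 to 24575 genes were above 0. Absolute depth is not given, but low values step by what a single read is worth, and on this basis the 3n *peg2* libraries had relative depths of 1 and 0.921, against 0.829 and 0.836 for the 3n *suvh7-1* libraries. Ribosomal RNA from 4 genes took 12.3% and 13.1% of the sum in 3n *peg2* seeds, against 14.2% and 15.6% in 3n *suvh7-1* seeds. Across genes, Pearson's r between the 2 libraries of a group was 0.991 in both groups. The sources do not say whether the seed pools of a group came from separate plants, so the p values measure the spread between these libraries, which may be technical.

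The targeted genes were examined first. *PEG2*, which the study describes as encoding an unknown protein, lies on chromosome 1 from 18232407 to 18233680 (TAIR10.1, minus strand) and had 0.238 and 0.0808 RPKM in 3n *peg2* seeds, against 0.646 and 0.605 RPKM in 3n *suvh7-1* seeds (log2 fold change -1.55 ± 0.32 SE, adjusted p = 0.0206). At a mean below 1 it is outside the 18078 genes, as are some list members named below. Over all 26601 genes fitted, 1.98% were called higher and 2.32% lower. The values of *PEG2* correspond to 16 and 5 reads in 3n *peg2* seeds, against 36 and 34 reads in 3n *suvh7-1* seeds. In 3n seeds it stood at 3.54 and 4.10 RPKM, so that *PEG2* was also low in seeds with *suvh7-1*. *SUVH7*, a putative histone-lysine methyltransferase gene on chromosome 1 from 6120741 to 6122822 (plus strand), had 3.10 and 3.02 RPKM in 3n *peg2* seeds, against 0.640 and 0.956 RPKM in 3n *suvh7-1* seeds (log2 fold change 1.84 ± 0.21 SE, adjusted p = 0.00168). The 3n *peg2* values lay beside the 3.09 and 3.16 RPKM of 3n seeds. Among the 4 triploid groups, each of the 2 mutated genes was therefore lowest in the libraries labelled with its mutation. *OSD1*, a regulator of meiosis and of the cell cycle on chromosome 3 from 21426285 to 21428340 (plus strand), had 0.864 and 1.67 RPKM in 3n *peg2* seeds, against 2.57 and 3.03 RPKM in 3n *suvh7-1* seeds (log2 fold change -1.14 ± 0.29 SE, adjusted p = 0.0495), and 8.83 and 7.02 RPKM in 2n seeds. *ADM*, the imprinted gene mutated in the third mutant, had 2.82 and 2.23 RPKM in 3n *peg2* seeds, against 0.758 and 0.706 RPKM in 3n *suvh7-1* seeds (log2 fold change 1.65 ± 0.39 SE, adjusted p = 0.0388). The calls of *PEG2*, *OSD1* and *ADM* were lost when single libraries were left out. Adjusted p was 0.0808 for *PEG2* without 3n *peg2* replicate 2, and 0.0953 and 0.0959 without 3n *suvh7-1* replicate 1 and 2. It was 0.217, 0.123 and 0.215 for *OSD1* without 3n *peg2* replicate 1 and without 3n *suvh7-1* replicate 1 and 2, and for *ADM* it was between 0.104 and 0.202 without any 1 of the 4 libraries.

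Triploid seeds with *peg2* had higher RNA levels of some endosperm genes than those with *suvh7-1*. Among them were type I MADS-box, defensin-like and pectin methylesterase inhibitor family genes. Levels of seed storage genes and of some maturation and cytokinesis genes were lower. A gene was called where the limma adjusted p was under 0.05 and the log2 fold change, on the scale of log2(RPKM + 0.1), was past 1. By this rule 326 genes (1.80% of 18078) were higher and 428 (2.37%) lower in 3n *peg2* seeds, and 1939 genes (10.7%) had an adjusted p under 0.05 whatever the size of the change. The median log2 fold change was 1.86 among the higher genes, with 146 past 4-fold and 41 past 8-fold, and -1.41 among the lower genes, with 103 past 4-fold and 36 past 8-fold. Over all 18078 genes the median was 0.03. For genes near 0 in 1 group the fold change depends on the pseudocount, and the extremes were 4.67 (2.12 with a pseudocount of 1 and 6.70 with 0.01) for AT1G66852 and -7.06 (-4.42 and -9.00) for *SESA2*. Without 3n *peg2* replicate 1 there were 209 genes called higher and 285 lower, and without 3n *suvh7-1* replicate 2 there were 248 and 270. The rank product, the method the authors used against 3n seeds, called 84 higher and 82 lower. Seeds are bulk tissue here, and fewer cells of a type cannot be told apart from less RNA per cell.

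The called genes were largely those that differ between triploid and diploid seeds. Of the 326 genes higher in 3n *peg2* than in 3n *suvh7-1* seeds, 308 (94.5%) were also called higher in 3n than in 2n seeds, 0 were called lower and 18 were not called. Of the 428 lower genes, 391 (91.4%) were called lower in 3n than in 2n seeds, 11 higher and 26 neither. In all, 1562 genes (8.64%) were raised and 1735 (9.60%) lowered in 3n against 2n seeds. That comparison contrasts other libraries than that of the mutants, but both were called from the same fit, with the same estimate of spread for each gene. Among the 1562 raised genes, 308 (19.7%) were higher and 11 lower in 3n *peg2* seeds, 1294 (82.8%) had a positive log2 fold change and the median was 0.46. Among the 1735 lowered genes, 0 were higher and 391 (22.5%) lower, 1661 (95.7%) had a negative log2 fold change and the median was -0.58. The remaining 14781 genes held 18 higher and 26 lower genes, with a median of 0.04. Pearson's r between the log2 fold changes of the 2 comparisons was 0.71 and Spearman's rho 0.67 over 18078 genes. Genes measured in the same libraries are not replicates, so these values are a description.

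**Figure D1:**
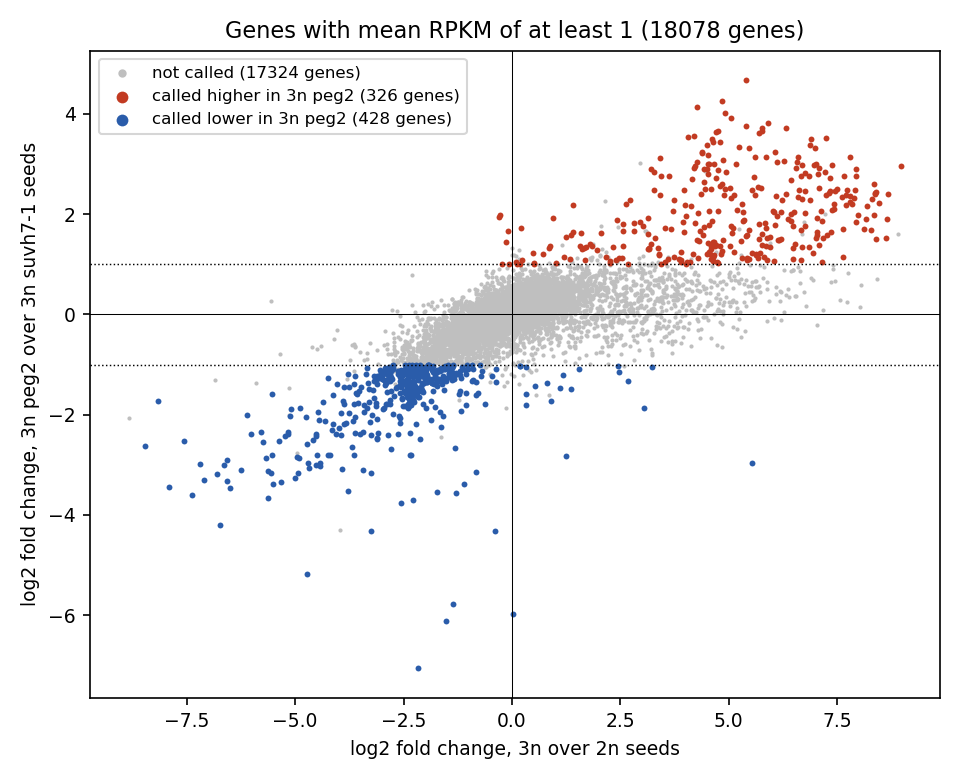
Log2 fold change of 3n *peg2* over 3n *suvh7-1* seeds (vertical axis) against that of 3n over 2n seeds (horizontal axis) on the scale of log2(RPKM + 0.1), 1 point for each of 18078 genes. The 326 genes called higher are red and the 428 called lower are blue, and dotted lines mark a log2 fold change of 1 either way. Red points lie mostly on the right and blue points mostly on the left.

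Set beside 3n seeds, the 3n *peg2* libraries differed in few genes and the 3n *suvh7-1* libraries in many. By the same rule 11 genes (0.0608%) were higher and 9 (0.0498%) lower in 3n *peg2* than in 3n seeds, while 400 (2.21%) were higher and 339 (1.88%) lower in 3n *suvh7-1* than in 3n seeds. These 2 comparisons share the 3n libraries, whose replicates were less alike than those of the mutants. Their median absolute log2 difference was 0.178, against 0.106 in 3n *peg2* and 0.113 in 3n *suvh7-1* seeds. Ribosomal RNA took 17.3% and 10.1% of the sum in 3n replicates 1 and 2. The genes raised in triploid seeds had a median log2 fold change of 0.04 in 3n *peg2* against 3n seeds and of -0.41 in 3n *suvh7-1* against 3n seeds. For the genes lowered in triploid seeds these medians were -0.05 and 0.52. The 3n libraries also entered the choice of the raised and lowered genes, so these medians are not free of that choice. Replicates also differed along the same genes. Among the 428 lower genes, replicate 2 was above replicate 1 for 383 (89.5%) in 3n *peg2* seeds and for 368 (86.0%) in 3n *suvh7-1* seeds, against 49.9% and 53.7% over all genes. Among the 326 higher genes these shares were 24.5% and 20.2%. What set the replicates apart along these genes was not tested.

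Several of the largest decreases were those of seed storage protein genes, which encode the 12S cruciferins and 2S albumins that fill protein bodies of the maturing embryo. All 7 listed genes with a mean of at least 1 RPKM were called lower, against 2.37% of all 18078 genes. Their median log2 fold change was -5.17. *SESA3*, a 2S albumin gene, had 0.729 and 2.03 RPKM in 3n *peg2* seeds, against 35.9 and 63.9 RPKM in 3n *suvh7-1* seeds (log2 fold change -5.17 ± 0.54 SE, adjusted p = 0.00129). The group values did not overlap, and 2n seeds had 20.9 and 7.87 RPKM, less than 3n *suvh7-1* seeds. *SESA2*, its neighbour, had 0 and 0.179 RPKM in 3n *peg2* seeds, against 15.2 and 32.3 RPKM in 3n *suvh7-1* seeds (log2 fold change -7.06 ± 0.63 SE, adjusted p = 0.000837). *SESA1* to *SESA4* are related genes at neighbouring loci. Since at most 1 alignment per read was allowed, the split of reads between similar copies is uncertain. *CRC*, the gene of cruciferin 3, had 0.0337 and 0.0366 RPKM in 3n *peg2* seeds, against 5.49 and 12.8 RPKM in 3n *suvh7-1* seeds (log2 fold change -5.97 ± 0.35 SE, adjusted p = 0.000403). It was nearly silent in 3n seeds, at 0.0208 and 0 RPKM, and in 2n seeds, at 0.0157 and 0 RPKM. In 3n *adm-2* seeds it had 9.45 and 9.34 RPKM. Both 3n *suvh7-1* and 3n *adm-2* seeds therefore stood above 2n seeds of the same age. *CRB* had 0 and 0.0403 RPKM in 3n *peg2* seeds, against 4.49 and 9.01 RPKM in 3n *suvh7-1* seeds (log2 fold change -5.77 ± 0.34 SE, adjusted p = 0.000403). For *CRA1*, the gene of cruciferin 1, the values were 0.837 and 2.24 RPKM in 3n *peg2* seeds and 14.9 and 24.5 RPKM in 3n *suvh7-1* seeds (log2 fold change -3.70 ± 0.42 SE, adjusted p = 0.00168). *SESA1* and *SESA4* were lower by log2 fold changes of -2.42 ± 0.47 and -3.39 ± 0.29 SE, with adjusted p of 0.0166 and 0.000792. Among the 9 listed genes, *SESA5* was below 1 RPKM but lower as well (log2 fold change -3.51 ± 0.55 SE, adjusted p = 0.00629), and the cruciferin-like gene AT1G03890 was near 0 in both groups. In both groups replicate 2 had more of *SESA3*, *CRB* and *CRA1* than replicate 1. Summed over the 9 genes, storage RNA reached 3.83 and 7.25 RPKM in 3n *peg2* seeds, against 93.2 and 170 RPKM in 3n *suvh7-1* seeds, with 4.38 and 2.98 RPKM in 3n and 42.9 and 26.8 RPKM in 2n seeds.

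The RY element, CATGCA or its complement TGCATG, is bound by the B3 factors LEC2, FUS3 and ABI3 and is typical of storage gene promoters. The 250 bases before the annotated start were searched on both strands for these letters, counting overlapping matches. Of 17549 promoters of the genes described, 7.09% held a match, against 7.86% of the 318 promoters of genes called higher and 16.9% of the 421 of genes called lower in 3n *peg2* seeds. For genes raised in 3n against 2n seeds the share was 7.60%, and for genes lowered it was 12.2%. Matches were found in 6 of the 7 storage protein promoters and in 5 of the 5 oil body protein promoters. Sequences of some storage protein genes and an oil body gene, all of which held matches, follow from RefSeq (TAIR10.1). They run 5′ to 3′ along the gene and end at the base before its start, with RY matches in capitals. They are *SESA3* (chr4:13611546-13611795, plus strand, 7 matches), *SESA2* (chr4:13609091-13609340, plus strand, 3 matches), *CRC* (chr4:14087306-14087555, plus strand, 1 match), *CRA1* (chr5:17758337-17758586, minus strand, 2 matches) and *OLEO1* (chr4:12900180-12900429, plus strand, 3 matches).
SESA3: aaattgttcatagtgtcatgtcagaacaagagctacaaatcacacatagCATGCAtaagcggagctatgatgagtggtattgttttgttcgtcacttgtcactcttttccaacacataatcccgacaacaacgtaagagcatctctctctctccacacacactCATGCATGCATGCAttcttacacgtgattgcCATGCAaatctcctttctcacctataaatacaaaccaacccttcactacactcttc
SESA2: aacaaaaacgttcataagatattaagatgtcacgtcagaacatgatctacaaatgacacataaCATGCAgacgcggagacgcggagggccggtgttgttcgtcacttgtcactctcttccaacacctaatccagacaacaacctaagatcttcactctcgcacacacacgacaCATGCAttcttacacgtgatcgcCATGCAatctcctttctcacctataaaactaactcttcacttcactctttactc
CRC: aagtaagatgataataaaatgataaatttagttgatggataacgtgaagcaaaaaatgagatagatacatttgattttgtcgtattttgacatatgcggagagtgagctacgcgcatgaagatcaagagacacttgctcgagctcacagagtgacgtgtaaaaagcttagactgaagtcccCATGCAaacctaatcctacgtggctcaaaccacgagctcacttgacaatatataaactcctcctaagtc
CRA1: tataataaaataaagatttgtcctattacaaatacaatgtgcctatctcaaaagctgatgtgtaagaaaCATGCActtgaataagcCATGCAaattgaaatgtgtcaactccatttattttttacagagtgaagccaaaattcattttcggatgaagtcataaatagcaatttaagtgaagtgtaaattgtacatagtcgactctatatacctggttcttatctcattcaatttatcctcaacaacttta
OLEO1: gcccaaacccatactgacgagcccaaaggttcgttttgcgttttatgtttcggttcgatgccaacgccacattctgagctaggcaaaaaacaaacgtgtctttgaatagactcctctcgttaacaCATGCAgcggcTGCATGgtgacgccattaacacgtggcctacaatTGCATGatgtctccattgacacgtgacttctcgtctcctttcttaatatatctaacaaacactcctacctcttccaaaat
The *CRB* promoter held 0 matches although its gene fell as far as that of *CRC*. A match is a description of the sequence and not evidence of binding.

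Some regulators of seed maturation and genes of oil storage were lower as well, mostly at smaller fold changes than the storage proteins. Of 8 maturation regulators, 5 were called lower and 0 higher, with a median of -1.06. Among all 18078 genes, 2.37% were called lower and 1.80% higher. *L1L*, which encodes a NF-YB subunit related to *LEC1*, had 2.996 and 5.68 RPKM in 3n *peg2* seeds, against 13.9 and 17.05 RPKM in 3n *suvh7-1* seeds (log2 fold change -1.87 ± 0.32 SE, adjusted p = 0.00962). *LEC1* itself, a master regulator of embryo development, had 46.5 and 64.6 RPKM in 3n *peg2* seeds, against 111 and 126 RPKM in 3n *suvh7-1* seeds (log2 fold change -1.11 ± 0.18 SE, adjusted p = 0.00821). For *WRI1*, the activator of fatty acid synthesis genes, the values were 30.2 and 38.9 RPKM in 3n *peg2* seeds and 75.7 and 81.9 RPKM in 3n *suvh7-1* seeds (log2 fold change -1.20 ± 0.11 SE, adjusted p = 0.00101). The B3 factor genes *FUS3* and *LEC2* were lower as well, at log2 fold changes of -1.20 ± 0.22 and -1.02 ± 0.21 SE, and *ABI3* just missed the fold threshold (log2 fold change -0.96 ± 0.16 SE, adjusted p = 0.00832). *ABI5* and *BBM* were not called, with log2 fold changes of 0.13 and -0.37. The 5 oil body genes above 1 RPKM had log2 fold changes between -2.05 and -1.12, all with group values that did not overlap, and 2 of them were called. Over all 18078 genes, 26.9% had group values that did not overlap in this direction. *OLEO1*, the main oleosin of oil bodies, had 9.39 and 15.2 RPKM in 3n *peg2* seeds, against 45.6 and 54.7 RPKM in 3n *suvh7-1* seeds (log2 fold change -2.05 ± 0.40 SE, adjusted p = 0.0176), while *OLEO2*, *OLEO3* and *OLEO4* missed the p threshold (0.0703, 0.0807 and 0.0520). The caleosin gene *CLO1*, at a mean of 0.933 RPKM, was lower as well (log2 fold change -2.49 ± 0.23 SE, adjusted p = 0.000851). Of 14 genes of fatty acid and oil synthesis 3 were called lower. *SAD6*, a stearoyl-ACP desaturase gene, had 1.76 and 3.27 RPKM in 3n *peg2* seeds, against 16.8 and 18.3 RPKM in 3n *suvh7-1* seeds (log2 fold change -2.81 ± 0.31 SE, adjusted p = 0.00150). *BCCP2*, a subunit gene of acetyl-CoA carboxylase, had 19.7 and 26.6 RPKM in 3n *peg2* seeds, against 54.6 and 64.8 RPKM in 3n *suvh7-1* seeds (log2 fold change -1.37 ± 0.16 SE, adjusted p = 0.00182), and *FAE1*, which elongates fatty acids, had an adjusted p of 0.0415. *KASI*, *PKP-BETA1* and *FATA* had adjusted p under 0.05 but log2 fold changes of -0.76, -0.65 and -0.72, short of 1. Without 3n *peg2* replicate 1, or without 3n *suvh7-1* replicate 2, 1 of the 8 maturation regulators was still called, and adjusted p was 0.0551 and 0.0775 for *L1L* and 0.2 and 0.215 for *FAE1*. No oil body gene above 1 RPKM was called (0 of 5) without 3n *peg2* replicate 1 or either 3n *suvh7-1* replicate, with adjusted p of 0.126, 0.0668 and 0.111 for *OLEO1*.

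**Figure D2:**
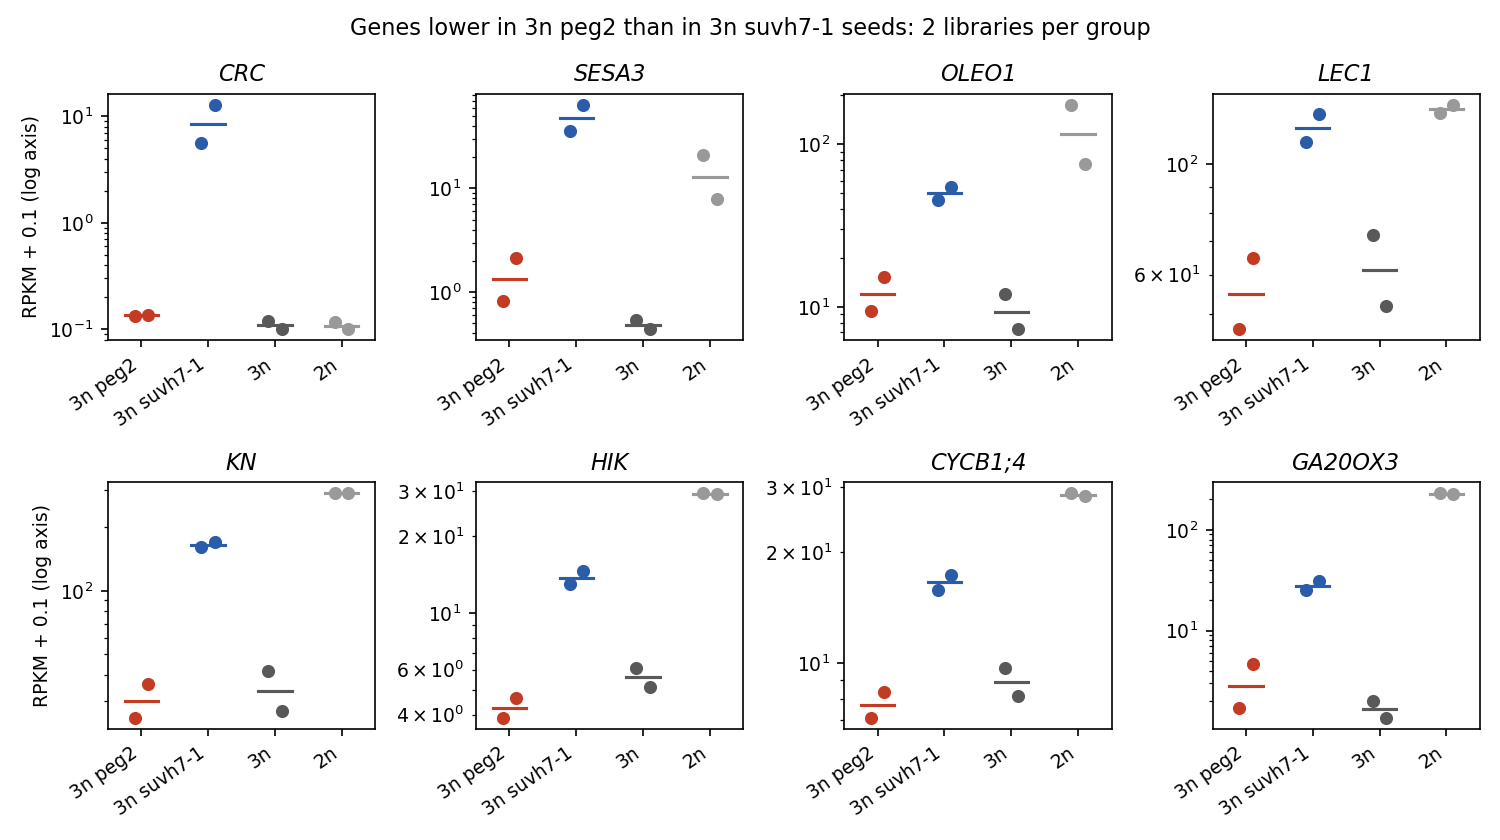
RPKM + 0.1 on a log axis for 8 genes called lower in 3n *peg2* seeds, 1 point per library and a line at the mean of the 2 logged values, from left to right in 3n *peg2*, 3n *suvh7-1*, 3n and 2n seeds. In every panel both 3n *peg2* points lie below both 3n *suvh7-1* points, and only for *CRC* and *SESA3* do the 3n *suvh7-1* points also lie above 2n.

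Genes of cell division formed a second group of lower genes. In the endosperm, cell walls are formed at cellularization by machinery also used in cytokinesis. *KN* (KNOLLE), the syntaxin of the cell plate, had 25.01 and 36.2 RPKM in 3n *peg2* seeds, against 161 and 169 RPKM in 3n *suvh7-1* seeds (log2 fold change -2.45 ± 0.21 SE, adjusted p = 0.000806). The levels in 3n *suvh7-1* seeds were between those of 3n seeds, 41.8 and 26.9 RPKM, and of 2n seeds, 289 and 289 RPKM. *KN* shares 31.4% of its length with AT1G08550 on the other strand, which had 6.44 and 5.86 RPKM in 3n *peg2* seeds, against 6.55 and 6.18 RPKM in 3n *suvh7-1* seeds. *HIK* (HINKEL), a kinesin of the phragmoplast, had 3.79 and 4.55 RPKM in 3n *peg2* seeds, against 12.8 and 14.5 RPKM in 3n *suvh7-1* seeds (log2 fold change -1.69 ± 0.12 SE, adjusted p = 0.000458). The microtubule bundler *PLE* and the phragmoplast kinases *RUK* and *TIO* were lower at log2 fold changes of -1.33 ± 0.10, -1.13 ± 0.14 and -1.13 ± 0.12 SE. That made 5 of 14 cytokinesis genes called lower, against 2.37% of all genes. *KEU*, *GSL8*, *DRP1A*, *NPK1* and the cellulose synthase genes *CESA1*, *CESA3* and *CESA6* differed by at most 0.16 either way and were not called. The B-type cyclins and their kinases had a median of -0.93, with 4 of 12 called lower, 12 of 12 negative and 11 not overlapping. Over all 18078 genes 45.0% were negative, and 26.9% had both 3n *peg2* values below both 3n *suvh7-1* values. *CYCB1;3* had 6.18 and 7.25 RPKM in 3n *peg2* seeds, against 13.97 and 16.9 RPKM in 3n *suvh7-1* seeds (log2 fold change -1.19 ± 0.17 SE, adjusted p = 0.00410). *CYCB1;4* had 7.004 and 8.23 RPKM in 3n *peg2* seeds, against 15.7 and 17.3 RPKM in 3n *suvh7-1* seeds (log2 fold change -1.11 ± 0.11 SE, adjusted p = 0.00115). *CYCB2;2* and *CDKB2;1* were also called, at log2 fold changes of -1.01 ± 0.17 and -1.07 ± 0.13 SE, whereas *CDKA;1*, whose kinase acts through the whole cell cycle, was at -0.05 ± 0.09 SE. *MYB3R-4*, an activator of mitotic genes named here after its values were seen, had 3.54 and 4.13 RPKM in 3n *peg2* seeds, against 7.28 and 8.42 RPKM in 3n *suvh7-1* seeds (log2 fold change -1.01 ± 0.13 SE, adjusted p = 0.00237). With 3n *peg2* replicate 1 left out 2 of 12 cyclin and kinase genes were called, and with 3n *suvh7-1* replicate 2 left out also 2. *CYCB1;4* then had a log2 fold change of -0.99 without 3n *peg2* replicate 1.

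MYB3R factors bind the mitosis-specific activator (MSA) element, whose core is AACGG, or CCGTT on the other strand. The core stood in 22.0% of all 17549 promoters, in 10.1% of those of genes called higher and in 27.1% of those called lower in 3n *peg2* seeds. For genes raised in 3n against 2n seeds the share was 12.75%, and for genes lowered it was 24.96%. It was present in 8 of 14 cytokinesis and 6 of 12 cyclin and kinase promoters. Those of *KN* (chr1:2711001-2711250, minus strand, 1 match), *HIK* (chr1:6324379-6324628, minus strand, 1 match) and *CYCB1;3* (chr3:3627274-3627523, minus strand, 3 matches) are shown from RefSeq (TAIR10.1), with the core in capitals.
KN: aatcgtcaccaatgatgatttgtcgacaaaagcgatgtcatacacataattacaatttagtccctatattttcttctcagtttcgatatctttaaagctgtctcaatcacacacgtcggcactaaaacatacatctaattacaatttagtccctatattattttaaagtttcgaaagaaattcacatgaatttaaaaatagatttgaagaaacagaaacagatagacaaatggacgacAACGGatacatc
HIK: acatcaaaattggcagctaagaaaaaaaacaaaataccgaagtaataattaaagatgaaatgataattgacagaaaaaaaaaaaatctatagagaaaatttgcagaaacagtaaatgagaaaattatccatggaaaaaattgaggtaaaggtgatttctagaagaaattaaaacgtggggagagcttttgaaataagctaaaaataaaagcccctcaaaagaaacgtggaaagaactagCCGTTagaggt
CYCB1;3: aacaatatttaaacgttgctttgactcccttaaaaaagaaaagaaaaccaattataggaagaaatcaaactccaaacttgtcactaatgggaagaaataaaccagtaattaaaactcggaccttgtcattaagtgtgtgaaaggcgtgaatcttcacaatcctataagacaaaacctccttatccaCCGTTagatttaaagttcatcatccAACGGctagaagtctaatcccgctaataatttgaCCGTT
In *CYCB1;4*, which fell about as far as *CYCB1;3*, the window held 0 matches. Among the same promoters the G-box, CACGTG, stood in 7.40% of all, 1.89% of those called higher and 8.79% of those called lower. For the CArG box, CC(A/T)6GG, these shares were 2.72%, 3.46% and 2.38%.

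Most *PEGs* had positive log2 fold changes, that is more RNA in 3n *peg2* seeds. Of 18 listed *PEGs*, 14 had a mean of at least 1 RPKM, and of these 5 were called higher and 0 lower, 12 had a positive log2 fold change and the median was 0.59. Over all 18078 genes, 1.80% were called higher, 55.0% had a positive log2 fold change and the median was 0.03. The list includes *PEG2* and the mutated *SUVH7*, and *SUVH7* and *ADM* are among the 5. *PEG7*, a protein kinase gene, had 7.56 and 6.79 RPKM in 3n *peg2* seeds, against 2.35 and 1.90 RPKM in 3n *suvh7-1* seeds (log2 fold change 1.71 ± 0.22 SE, adjusted p = 0.00300). *HDG10*, a homeodomain gene, had 3.89 and 3.21 RPKM in 3n *peg2* seeds, against 1.24 and 1.01 RPKM in 3n *suvh7-1* seeds (log2 fold change 1.57 ± 0.19 SE, adjusted p = 0.00225). For *FXG1*, the gene of an alpha-fucosidase, the values were 12.3 and 12.3 RPKM in 3n *peg2* seeds and 6.002 and 6.15 RPKM in 3n *suvh7-1* seeds (log2 fold change 1.01 ± 0.14 SE, adjusted p = 0.00428), and its end overlaps AT1G67820 on the other strand. *PEG4*, below the mean of 1, showed the largest fold change of the *PEGs*, with 0.890 and 0.818 RPKM in 3n *peg2* seeds, against 0.0330 and 0.0328 RPKM in 3n *suvh7-1* seeds (log2 fold change 2.84 ± 0.44 SE, adjusted p = 0.00616). The auxin synthesis gene *YUC10* was higher by 0.72 ± 0.14 SE (adjusted p = 0.0169), short of the fold threshold, and *PEG8*, *PEG9* and *PEG1* had log2 fold changes of 1.09, 0.89 and 0.84 with adjusted p of 0.0813, 0.163 and 0.0555. With the replicate number fitted as a block *PEG8* was called higher. *PEG3*, *PEG5*, *PEG6* and *PKR2* ranged from 0.04 to 0.47 and missed the threshold. In contrast, *HDG3*, a homeodomain gene, had 74.1 and 99.03 RPKM in 3n *peg2* seeds, against 165 and 174 RPKM in 3n *suvh7-1* seeds (log2 fold change -0.98 ± 0.15 SE, adjusted p = 0.00527), with 3n *peg2* beside the 100.4 and 79.5 RPKM of 3n seeds and far from the 18.4 and 19.9 RPKM of 2n seeds. It was called lower without 3n *peg2* replicate 2 (-1.19) and without 3n *suvh7-1* replicate 1 (-1.02). *VIM5*, a ubiquitin ligase gene, was at -0.36 ± 0.09 SE (adjusted p = 0.0418). *PHE1*, a type I MADS-box gene, had 107 and 106 RPKM in 3n *peg2* seeds and 101 and 97.97 RPKM in 3n *suvh7-1* seeds, and was not called (log2 fold change 0.10 ± 0.08 SE, adjusted p = 0.533), although 2n seeds had 0.909 and 0.749 RPKM. Without 3n *suvh7-1* replicate 1, 3 of the 14 *PEGs* were called higher and 1, *HDG3*, lower, with *FXG1* at 0.99, and without 3n *peg2* replicate 1 adjusted p for *PEG4* was 0.0528. The maternally expressed genes *FWA* and *SDC* had adjusted p under 0.05 at 0.67 and 0.87, while *MEA*, *FIS2* and *HDG9* were not called.

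**Figure D3:**
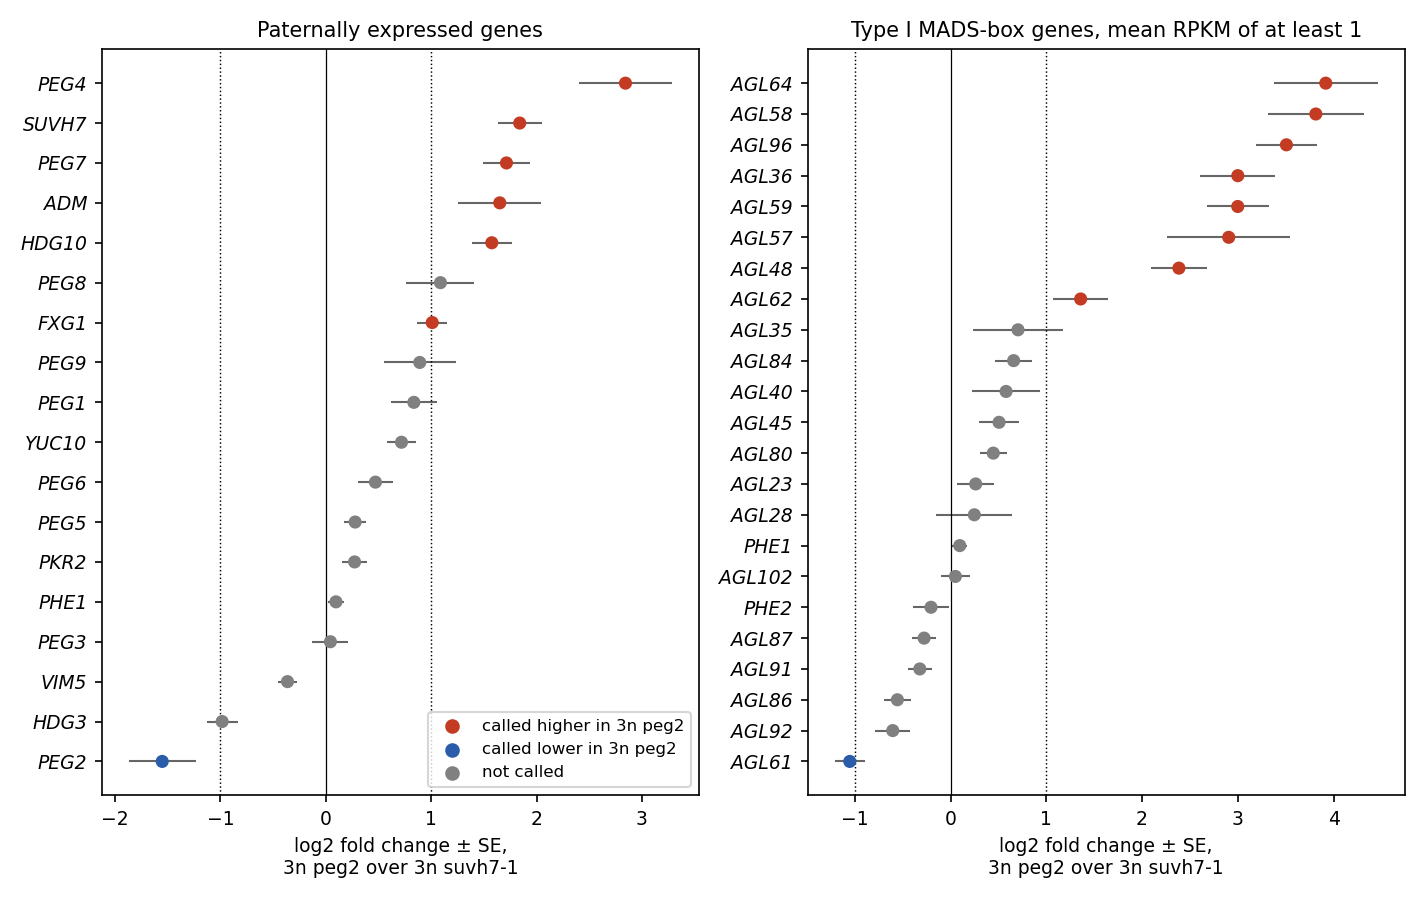
Log2 fold change of 3n *peg2* over 3n *suvh7-1* seeds with its standard error for the 18 *PEGs* (left) and the 23 type I MADS-box genes with a mean of at least 1 RPKM (right). Red genes were called higher, blue lower and grey not called, and dotted lines mark 1 and -1. Values run from 3.92 for *AGL64* to -1.05 for *AGL61* on the right.

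Type I MADS-box genes, which encode regulators active in the young endosperm, included some of the largest increases in 3n *peg2* seeds, members not called and 1 called decrease. Of 12 M-alpha genes with a mean of at least 1 RPKM, 5 were called higher and 1 lower, and of 11 M-gamma genes 3 were higher and 0 lower. Among all 18078 genes, 1.80% were called higher and 2.37% lower. *AGL96* had 46.00 and 47.3 RPKM in 3n *peg2* seeds, against 5.81 and 2.76 RPKM in 3n *suvh7-1* seeds (log2 fold change 3.51 ± 0.32 SE, adjusted p = 0.000876). *AGL58* had 6.27 and 3.65 RPKM in 3n *peg2* seeds, against 0.425 and 0.130 RPKM in 3n *suvh7-1* seeds (log2 fold change 3.81 ± 0.50 SE, adjusted p = 0.00306). *AGL64* had 101 and 86 reads in 3n *peg2* seeds, against 0 and 7 reads in 3n *suvh7-1* seeds (log2 fold change 3.92 ± 0.54 SE, adjusted p = 0.00369). *AGL36*, a maternally expressed gene, *AGL48*, *AGL57* and *AGL59* were higher by 3.0, 2.38, 2.91 and 3.0 on the log2 scale. *AGL62*, which holds back endosperm cellularization, had 5.97 and 4.11 RPKM in 3n *peg2* seeds, against 1.90 and 1.84 RPKM in 3n *suvh7-1* seeds (log2 fold change 1.36 ± 0.28 SE, adjusted p = 0.0229). *AGL61* (DIANA), needed for central cell development, went the other way with 1.15 and 1.09 RPKM in 3n *peg2* seeds, against 2.48 and 2.38 RPKM in 3n *suvh7-1* seeds (log2 fold change -1.05 ± 0.16 SE, adjusted p = 0.00533). In contrast *PHE2*, *AGL23*, *AGL28*, *AGL40*, *AGL91* and *AGL102* were at log2 fold changes between -0.32 and 0.58 and not called, and all 6 were raised in 3n against 2n seeds. The M-gamma genes *AGL92*, *AGL86* and *AGL87* were also not called, at log2 fold changes of -0.60, -0.56 and -0.28. *AGL87* was abundant, at a mean of 153 RPKM. Of the 11 M-gamma genes 7 had a positive and 4 a negative log2 fold change. *AGL40* was among the most abundant, at 112 and 109.9 RPKM in 3n *peg2* seeds and 76.00 and 72.2 RPKM in 3n *suvh7-1* seeds. Several of these genes are close paralogs, between which the split of reads is uncertain. Without 3n *peg2* replicate 1, and without 3n *suvh7-1* replicate 2, 3 M-alpha genes were called higher. Among 7 endosperm markers, *AGL62* and *MINI3*, a WRKY gene of the HAIKU pathway, were higher, the second with 3.14 and 2.40 RPKM in 3n *peg2* seeds, against 0.512 and 0.0619 RPKM in 3n *suvh7-1* seeds (log2 fold change 3.17 ± 0.59 SE, adjusted p = 0.0145). *MYB119*, below 1 RPKM, was higher too (2.64 ± 0.51 SE, adjusted p = 0.0173), but the call was lost without either 3n *peg2* replicate or without 3n *suvh7-1* replicate 2. *ZOU*, which is needed for endosperm breakdown, was at -0.53 ± 0.08 SE (adjusted p = 0.00459), and *ALE1* and *IKU1* were not called. Fewer of the 7 markers were called with a library left out, 0 without 3n *peg2* replicate 1 and 1 without any other.

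**Figure D4:**
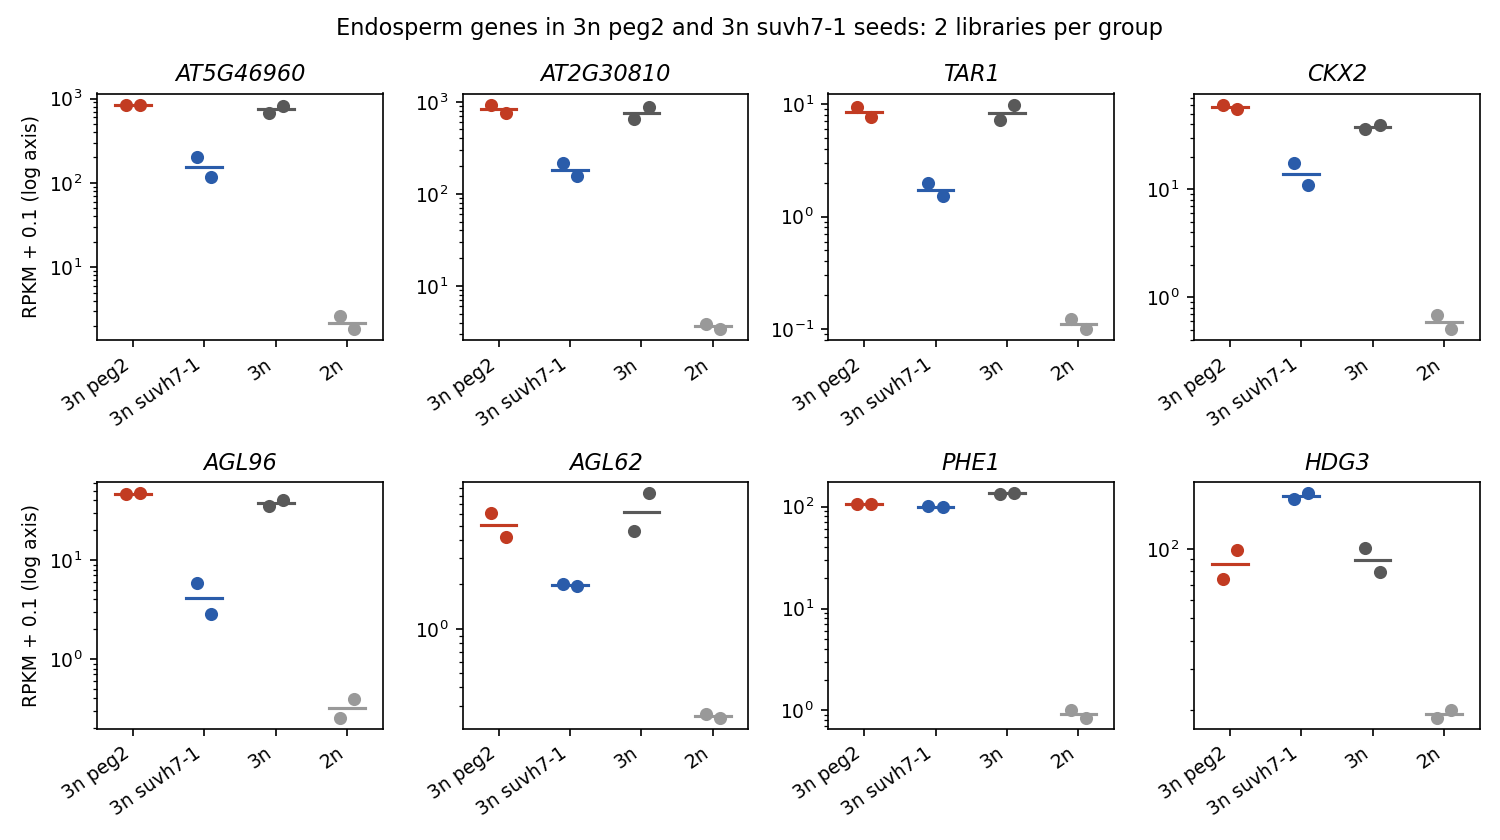
RPKM + 0.1 on a log axis for 8 endosperm-type genes, 1 point per library and a line at the mean of the 2 logged values, from left to right in 3n *peg2*, 3n *suvh7-1*, 3n and 2n seeds. The first 6 were called higher in 3n *peg2* seeds, where they lie near 3n, while *PHE1* was close in both mutants and *HDG3* was lower in 3n *peg2* seeds without passing the fold threshold.

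Hormone genes were called in both directions. *TAR1*, an aminotransferase gene of auxin synthesis, had 9.21 and 7.54 RPKM in 3n *peg2* seeds, against 1.88 and 1.41 RPKM in 3n *suvh7-1* seeds (log2 fold change 2.29 ± 0.22 SE, adjusted p = 0.00114). *YUC11*, which acts in the next step, was higher at less than 1 RPKM, with 44 and 29 reads in 3n *peg2* seeds, against 2 and 2 reads in 3n *suvh7-1* seeds (log2 fold change 2.15 ± 0.37 SE, adjusted p = 0.00982). *TAA1*, the relative of *TAR1*, was at -0.80 ± 0.20 SE (adjusted p = 0.0465), with 2.93 and 3.78 RPKM in 3n *peg2* seeds, against 5.30 and 6.50 RPKM in 3n *suvh7-1* seeds. *CKX2*, a cytokinin oxidase gene of the endosperm, had 60.7 and 55.00 RPKM in 3n *peg2* seeds, against 17.4 and 10.9 RPKM in 3n *suvh7-1* seeds (log2 fold change 2.06 ± 0.21 SE, adjusted p = 0.00127). *IPT8* and *IPT4*, of cytokinin synthesis, were higher as well, *IPT8* by 1.83 ± 0.25 SE and *IPT4*, at 40 and 36 reads in 3n *peg2* seeds against 10 and 17 in 3n *suvh7-1* seeds, by 1.03 ± 0.23 SE. Among the gibberellin oxidase genes above 1 RPKM, 3 of 8 were higher and 1 lower. *GA20OX3*, of gibberellin synthesis, had 1.61 and 4.56 RPKM in 3n *peg2* seeds, against 25.1 and 30.96 RPKM in 3n *suvh7-1* seeds (log2 fold change -3.31 ± 0.40 SE, adjusted p = 0.00213), both far below the 230.2 and 225 RPKM of 2n seeds. *GA3OX4*, which acts in the last step of synthesis, had 7.14 and 7.07 RPKM in 3n *peg2* seeds, against 1.61 and 1.97 RPKM in 3n *suvh7-1* seeds (log2 fold change 1.94 ± 0.23 SE, adjusted p = 0.00209). In this gene 3n *suvh7-1* seeds were the low group, since 3n and 2n seeds had 4.77 and 7.64 and 8.603 and 6.41 RPKM. *GA20OX5* and *GA2OX3*, the second a catabolic gene, were higher by 1.14 ± 0.22 and 1.11 ± 0.21 SE, and with any 1 of the 4 libraries left out 1 of the 8 genes was higher, with adjusted p between 0.0728 and 0.089 for *GA20OX5*. For *YUC11* it was 0.0804, 0.0548 and 0.0651 without 3n *peg2* replicate 1 and without 3n *suvh7-1* replicate 1 and 2. None of 7 abscisic acid genes was called (0 of 7), where 1.80% and 2.37% of all genes were.

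The most abundant of the higher genes encode small secreted proteins. AT5G63087, a thionin family gene, had 1916 and 1635 RPKM in 3n *peg2* seeds, against 507 and 471 RPKM in 3n *suvh7-1* seeds (log2 fold change 1.86 ± 0.17 SE, adjusted p = 0.000951). AT5G46960, of the invertase and pectin methylesterase inhibitor family, had 844 and 834 RPKM in 3n *peg2* seeds, against 201 and 119 RPKM in 3n *suvh7-1* seeds (log2 fold change 2.44 ± 0.25 SE, adjusted p = 0.00119). AT2G30810, a gibberellin-regulated family gene, had 928 and 755 RPKM in 3n *peg2* seeds, against 215 and 156 RPKM in 3n *suvh7-1* seeds (log2 fold change 2.19 ± 0.19 SE, adjusted p = 0.000806). In 2n seeds these 3 genes were at 69.6 and 74.5, 2.54 and 1.74 and 3.80 and 3.29 RPKM. The ECA1 gene AT5G51105, which lies within AT5G51110 on the other strand, and the defensin-like gene AT1G77525 were higher by 1.15 ± 0.18 and 1.01 ± 0.14 SE, and neither call held without 3n *peg2* replicate 1 (log2 fold changes 1.13, adjusted p = 0.0538, and 0.86). By product name, the Defensin-like (DEFL) family had the highest share of genes called higher among 106 families of at least 15 genes, 19 of 39 (48.7%), followed by the invertase and pectin methylesterase inhibitors with 13 of 36 (36.1%), the X8 carbohydrate-binding proteins with 6 of 18 (33.3%), the self-incompatibility S1 proteins with 8 of 24 (33.3%) and the membrane lipoproteins with 4 of 17 (23.5%). The largest increase of all belonged to an X8 gene, AT1G66852, with 88 and 65 reads in 3n *peg2* seeds, against 0 and 2 reads in 3n *suvh7-1* seeds (log2 fold change 4.67 ± 0.33 SE, adjusted p = 0.000458). AT3G55677, of the S1 family, had 7.06 and 5.70 RPKM in 3n *peg2* seeds, against 0.307 and 0.183 RPKM in 3n *suvh7-1* seeds (log2 fold change 4.25 ± 0.26 SE, adjusted p = 0.000410). *PROPEP2*, the precursor gene of an elicitor peptide, had 2.33 and 2.79 RPKM in 3n *peg2* seeds, against 0.125 and 0 RPKM in 3n *suvh7-1* seeds (log2 fold change 4.14 ± 0.45 SE, adjusted p = 0.00137). The uncharacterized AT2G26865 and the endoglucanase gene *GH9B10* had log2 fold changes of 4.01 and 3.76. Over the wider lists, 10 of 15 ECA1 genes were higher and 1 lower, and 58 of 176 defensin-like and cysteine-rich genes were higher and 7 lower. The shares over all genes were 1.80% higher and 2.37% lower. ECA1 genes named for their extremes are AT3G45243 and AT5G15000, higher by 3.72 and 2.97, and AT2G14378 and AT5G53742, with -2.59 and -1.38 at less than 1 RPKM. AT5G53742 had only 2 and 1 reads in 3n *peg2* seeds, against 8 and 5 in 3n *suvh7-1* seeds. Its call was lost with any 1 of these libraries left out, and it lies within AT5G53740 on the same strand. Of the defensin-like genes, AT4G29033 and *LCR59* rose most, with 3.67 and 3.37, and *PDF2.1*, with 2.76 and 4.84 RPKM in 3n *peg2* seeds, against 32.8 and 33.96 RPKM in 3n *suvh7-1* seeds, fell most (log2 fold change -3.15 ± 0.41 SE, adjusted p = 0.00283). Without 3n *peg2* replicate 1, 5 ECA1 genes were higher, and 28 defensin-like genes were higher and 3 lower. Without 3n *suvh7-1* replicate 2, 35 defensin-like genes were higher and 3 lower, and without 3n *peg2* replicate 2, 2 ECA1 genes were lower. *LCR59* was not called in any of these 3 fits (adjusted p = 0.0929, 0.0791 and 0.0638).

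Among the lower genes by product name, 2S albumin and lipid transfer proteins led with 8 of 37 (21.6%), followed by RmlC-like cupins with 4 of 20 (20.0%), ABC-2 transporters with 2 of 15 (13.3%), S1 proteins with 3 of 24 (12.5%) and NPH3 proteins with 2 of 16 (12.5%). The most abundant were the tandem lipid transfer genes AT5G38170 and AT5G38160. AT5G38170 had 261 and 329 RPKM in 3n *peg2* seeds, against 964 and 1325 RPKM in 3n *suvh7-1* seeds (log2 fold change -1.95 ± 0.22 SE, adjusted p = 0.00174), and 2n seeds had 6029 and 6083 RPKM. AT5G38160 had a log2 fold change of -2.18 ± 0.20 SE, and reads of such copies may have been split between them. *LCR69*, a cysteine-rich peptide gene, had 107 and 209.5 RPKM in 3n *peg2* seeds, against 845 and 1033 RPKM in 3n *suvh7-1* seeds (log2 fold change -2.64 ± 0.31 SE, adjusted p = 0.00182). AT1G12080, a calcium-binding protein gene, had 41.2 and 75.2 RPKM in 3n *peg2* seeds, against 448 and 551 RPKM in 3n *suvh7-1* seeds (log2 fold change -3.16 ± 0.30 SE, adjusted p = 0.000985). All of these were below 2n seeds in both mutants. *GSTF3*, a glutathione S-transferase gene, and the uncharacterized AT1G62070 and AT2G25735 completed the largest decreases, at -4.32, -4.19 and -3.75. AT1G62070 had 0.131 and 2.17 RPKM in 3n *peg2* seeds, against 13.6 and 12.7 RPKM in 3n *suvh7-1* seeds and was not called without 3n *peg2* replicate 1 or either 3n *suvh7-1* replicate (adjusted p = 0.111, 0.133 and 0.142).

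Pectin genes differed by annotated class. The classes follow product names, and a family name does not show whether a member is an enzyme or an inhibitor. Of 54 genes named after the pectin methylesterase inhibitor family, called inhibitors below, 15 were called higher and 3 lower. Their median was 0.39. AT3G17150 had 86.7 and 70.7 RPKM in 3n *peg2* seeds, against 14.9 and 7.12 RPKM in 3n *suvh7-1* seeds (log2 fold change 2.91 ± 0.31 SE, adjusted p = 0.00130), and AT1G11362 was higher by 3.55 ± 0.25 SE. The inhibitor gene AT3G12880 was lower, with 11.02 and 13.9 RPKM in 3n *peg2* seeds, against 82.8 and 92.01 RPKM in 3n *suvh7-1* seeds (log2 fold change -2.81 ± 0.17 SE, adjusted p = 0.000410), as was AT2G01610 (-2.97 ± 0.38 SE). Of 38 polygalacturonase and pectin lyase fold genes 1 was higher and 4 were lower, with a median of 0.02. That is 2.63% higher and 10.5% lower, against 1.80% and 2.37% of all genes. Over all 93 members fitted, also those below 1 RPKM, 5 were higher and 6 lower. The higher gene of the 38 was AT3G48950 (log2 fold change 1.20 ± 0.10 SE, adjusted p = 0.000670). Among the 38, AT2G43870 fell most, with 0.655 and 0.982 RPKM in 3n *peg2* seeds, against 6.83 and 5.69 RPKM in 3n *suvh7-1* seeds (log2 fold change -2.81 ± 0.30 SE, adjusted p = 0.00135). AT4G32380, which is not among the 38, was among the 10 genes with the largest increase. It had 47.8 and 38.2 RPKM in 3n *peg2* seeds, against 6.11 and 1.63 RPKM in 3n *suvh7-1* seeds (log2 fold change 3.71 ± 0.50 SE, adjusted p = 0.00348). Of 13 genes on the separate pectin methylesterase list 0 were higher and 2 lower, *QRT1* and *PME5*. Both are also counted among the 4 lower lyase fold genes. They had adjusted p of 0.0413 and 0.0358, and lost the call in 4 and 3 of the 4 fits with a library left out, with adjusted p between 0.0881 and 0.225. Without 3n *peg2* replicate 1 the lower count was 1 of 38 for the lyase fold and without 3n *suvh7-1* replicate 2 it was 2, while 5 of 54 inhibitors were lower without 3n *peg2* replicate 2 and 2 without 3n *suvh7-1* replicate 2.

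Chromatin genes showed small shifts. Of 19 genes of DNA methylation and its removal, 0 were called, but 19 of 19 had a negative log2 fold change and non-overlapping groups, with a median of -0.38. In all, 26.9% of the 18078 genes had both 3n *peg2* values below both 3n *suvh7-1* values, and 33.2% had both above. *VIM1*, needed for CG methylation, had 20.02 and 20.7 RPKM in 3n *peg2* seeds, against 31.3 and 31.1 RPKM in 3n *suvh7-1* seeds (log2 fold change -0.61 ± 0.08 SE, adjusted p = 0.00283). *DDM1*, a chromatin remodeler gene, had 6.77 and 7.28 RPKM in 3n *peg2* seeds, against 10.8 and 10.5 RPKM in 3n *suvh7-1* seeds (log2 fold change -0.60 ± 0.08 SE, adjusted p = 0.00315). *ROS1*, a DNA glycosylase gene, was at -0.56 ± 0.08 SE, *MET1* at -0.23 ± 0.08 and *DME* at -0.29 ± 0.08 SE. Among the relatives of *SUVH7*, *SUVH8* was higher with 5.63 and 5.30 RPKM in 3n *peg2* seeds, against 2.45 and 2.44 RPKM in 3n *suvh7-1* seeds (log2 fold change 1.13 ± 0.12 SE, adjusted p = 0.00137). It overlaps AT2G24735 along its whole length on the other strand, so that these reads cannot be assigned without strand. *SUVH1* to *SUVH6* and *SUVH9* had log2 fold changes from -0.36 to -0.06. None of 11 Polycomb and PICKLE genes was called (0 of 11, median -0.13).

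Few markers of the other tissues in the pool were called. Of 16 proanthocyanidin genes of the seed coat 0 were called. Their log2 fold changes were above 0 in 16 of 16, against 55.0% over all genes, with a median of 0.24. In 11 of the 16, both 3n *peg2* values lay above both 3n *suvh7-1* values, against 33.2% of all genes. Their RPKM summed to 5378 and 5100 in 3n *peg2* seeds, against 4324 and 4244 in 3n *suvh7-1* seeds, with *BAN* at 417 and 386 RPKM in 3n *peg2* seeds and 374 and 404 RPKM in 3n *suvh7-1* seeds. Of 14 mucilage genes 1 was lower, *GATL5* (adjusted p = 0.0341), and their sums were 2694 and 2969 RPKM in 3n *peg2* seeds, against 2864 and 2823 RPKM in 3n *suvh7-1* seeds. Of 10 embryo genes above 1 RPKM, *WOX9* was lower with 2.25 and 3.56 RPKM in 3n *peg2* seeds, against 6.98 and 8.44 RPKM in 3n *suvh7-1* seeds (log2 fold change -1.41 ± 0.19 SE, adjusted p = 0.00368), while *WOX8*, *PDF2*, *CUC1* and *CUC2* were at 0.21, -0.04, 0.24 and 0.07. Embryo sums were 129 and 131 RPKM in 3n *peg2* seeds, against 124 and 121 RPKM in 3n *suvh7-1* seeds. Pollen markers summed to 4.92 and 4.29 RPKM in 3n *peg2* seeds and 5.30 and 5.33 RPKM in 3n *suvh7-1* seeds, and 16 of 17 were below 1 RPKM, with the sperm genes *GEX2* and *HAP2* lower there at adjusted p of 0.00969 and 0.0342. Of 6 silique wall and leaf markers above 1 RPKM 0 were called. *CA1* of the same list, below 1 RPKM, was higher (log2 fold change 1.27 ± 0.29 SE, adjusted p = 0.0347), but lost the call with any 1 of the 4 libraries left out. The part of these tissues in the differences above was not tested. In the sugar import list *CWINV1* was lower, at a log2 fold change of -1.03 ± 0.20 SE, and the other 11 of 12 genes were not called. Of 335 ribosomal protein genes, 45 histone genes and 171 heat shock genes 0 were called either way, and of 96 photosystem genes 1, *LHCB2.3* (adjusted p = 0.0455), was lower, or 3 without 3n *peg2* replicate 2. The calls of *GATL5*, *GEX2*, *HAP2*, *CWINV1* and *LHCB2.3* did not hold without 3n *peg2* replicate 1, with adjusted p of 0.166, 0.0763, 0.137, 0.0969 and 0.245, or without 3n *suvh7-1* replicate 2, with 0.152, 0.0702, 0.137, 0.106 and 0.219.

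Some differences lay outside the ploidy pattern. Of the 326 higher genes 18, and of the 428 lower genes 37, were not called in the same direction between 3n and 2n seeds, and 55 of the lower genes had a mean in 3n *suvh7-1* seeds above that of 2n seeds. The genes named in this paragraph were chosen after their values were seen, apart from AT1G53285. AT1G04645, of the S1 family, had 27.7 and 32.8 RPKM in 3n *peg2* seeds, against 91.6 and 92.5 RPKM in 3n *suvh7-1* seeds (log2 fold change -1.61 ± 0.11 SE, adjusted p = 0.000457), while 3n and 2n seeds had 40.2 and 32.6 and 61.2 and 67.04 RPKM. Its relatives AT1G26796 and AT1G26797 were lower, at log2 fold changes of -1.59 and -1.43. In AT1G53285, a thionin gene, the values were 184 and 184 RPKM in 3n *peg2* seeds and 384 and 370.4 RPKM in 3n *suvh7-1* seeds (log2 fold change -1.03 ± 0.15 SE, adjusted p = 0.00468), with 3n and 2n seeds at 182 and 147 and 128 and 163 RPKM. In all 4 genes 3n *suvh7-1* seeds were the high group. AT3G21770, a peroxidase gene, had a log2 fold change of -2.83 ± 0.25 SE. *GDH3*, a glutamate dehydrogenase gene, had 9.60 and 7.49 RPKM in 3n *peg2* seeds, against 3.76 and 2.48 RPKM in 3n *suvh7-1* seeds (log2 fold change 1.44 ± 0.20 SE, adjusted p = 0.00414), and 3n and 2n seeds, with 9.64 and 8.29 and 9.05 and 10.6 RPKM, were close to 3n *peg2*. *COR47*, a dehydrin gene, and *PRR5*, of the circadian clock, had log2 fold changes of -1.10 and -1.56. Both mutants together differed from 3n seeds in AT1G32280, a lipid transfer protein gene with 75.5 and 71.6 RPKM in 3n *peg2* seeds and 61.9 and 59.7 RPKM in 3n *suvh7-1* seeds (log2 fold change 0.27 ± 0.25 SE, adjusted p = 0.584), but 0.275 and 0.0903 RPKM in 3n and 12.4 and 12.4 RPKM in 2n seeds. AT3G17140, of the pectin methylesterase inhibitor family, was low in both mutants, with 1.83 and 1.75 RPKM in 3n *peg2* seeds and 0.377 and 0.160 RPKM in 3n *suvh7-1* seeds, against 16.6 and 21.8 RPKM in 3n seeds.

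Called genes were spread over the chromosomes. Within 2 Mb of *PEG2* 3 of 529 genes were higher and 13 lower, within 2 Mb of *SUVH7* 12 of 790 and 18, and within 2 Mb of *OSD1* 9 of 807 and 14. The shares were 0.567%, 1.52% and 1.12% higher and 2.46%, 2.28% and 1.73% lower, against 1.80% and 2.37% of all genes. By chromosome, the share higher ran from 1.503% on chromosome 5 to 2.26% on chromosome 2 and the share lower from 2.21% on chromosome 1 to 2.68% on chromosome 4. A few genes, however, were almost silent in 3n *peg2* seeds alone. By a rule made after the data were seen (more than 1.5 log2 units from every library of the other 4 groups, mean of at least 0.5 RPKM), 4 genes were low in 3n *peg2* seeds, all on chromosome 2. *SADHU1-1*, a pseudogene of the Sadhu retroelements from 4005995 to 4007044, had 0.0288 and 0.125 RPKM in 3n *peg2* seeds, against 11.1 and 12.4 RPKM in 3n *suvh7-1* seeds (log2 fold change -6.12 ± 0.24 SE, adjusted p = 9.33e-05), and 3n and 2n seeds had 7.48 and 7.57 and 19.8 and 24.3 RPKM. AT2G09795, a noncoding RNA from 3669906 to 3672766, had 0 and 0.0209 RPKM in 3n *peg2* seeds, against 1.99 and 2.20 RPKM in 3n *suvh7-1* seeds (log2 fold change -4.32 ± 0.19 SE, adjusted p = 9.33e-05). It shares 87.0% of its length with AT2G09800 on the other strand, which had 0 and 0.00320 RPKM in 3n *peg2* seeds, against 0.408 and 0.447 RPKM in 3n *suvh7-1* seeds. The remaining genes of the 4 were AT2G11240, a pseudogene from 4477686 to 4483748, and AT2G01090, a ubiquinol-cytochrome c reductase hinge protein gene from 79779 to 81710, at -4.17 and -3.56. AT2G12190, a cytochrome P450 gene of the same chromosome, had 1.17 and 1.44 RPKM in 3n *peg2* seeds, against 11.4 and 10.2 RPKM in 3n *suvh7-1* seeds (log2 fold change -2.96 ± 0.16 SE, adjusted p = 0.000360), and 23.4 and 24.6 RPKM in 3n seeds. By the same rule 1 gene was high in 3n *suvh7-1* seeds alone, AT1G07680 on chromosome 1, with 0.216 and 0.304 RPKM in 3n *peg2* seeds, against 1.38 and 1.96 RPKM in 3n *suvh7-1* seeds (log2 fold change -2.29 ± 0.36 SE, adjusted p = 0.00653). With 1 insertion line for each mutation, the mutation and other differences between the pollen donor lines cannot be told apart.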

How the data were processed

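RNA of seeds from 20 siliques per library was sequenced by the authors in duplicate (TruSeq, paired end) and mapped to TAIR10 with TopHat2 2.0.10, allowing at most 1 alignment per read. The deposited table gives RPKM per gene, and the tool that made it and the use of strand are not given in the sources used here. RPKM are not counts, so log2(RPKM + 0.1) was fitted with limma 3.58.1 (R 4.3.3; lmFit, eBayes with trend) over 10 libraries in 5 groups, on the 26601 genes with a value above 0 in 2 or more libraries, and p values were adjusted over these genes (Benjamini-Hochberg). The 3n against 2n call used the same fit. A gene was called at an adjusted p under 0.05 and a log2 fold change past 1. In data simulated for the comparison of 3n *peg2* with 3n *suvh7-1* seeds on 26601 genes, 91 of 100 changes of 1.5 and 100 of 100 of 3 on the log2 scale were recovered, with 7 false calls. Changes were placed only in genes with a mean of at least 1 RPKM, and the spread was independent between genes. Replicate differences shared by many genes, as seen above, were not simulated, so these rates need not hold for the calls. Reads were recovered from the steps of low RPKM, taking the smallest step as 1 read, and 3125 of 3125 low genes gave whole reads within 0.02 of a read. RPKM of different libraries were compared as deposited. Names came from the RefSeq annotation of TAIR10.1, which matched 32835 of 33602 identifiers. The 279 organelle genes of the table were at 0 in all libraries.

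Genes were named by a rule. It took the mutated genes and *PEGs*, the 10 called genes with the largest change and the 5 with the highest mean in each direction, and the 2 called genes with the most positive and the 2 with the most negative change of each list, and others are given with their list or marked. Members and lists were chosen with earlier results of these data known. Lists were described by counts and medians, without a test. Alternatives covered the pseudocount, filter, samples fitted, scaling, rank product (100 permutations), adjusted p under 0.01, replicate block and single libraries left out. Analyses used Python 3.11.15, numpy 2.4.6, pandas 2.3.3, scipy 1.17.1 and matplotlib 3.10.9.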

Additional observations from a re-analysis of the deposited data

How the results depend on the processing

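Total counts of called genes under the other settings stayed within 1.5 times those reported, except as follows. The rank product called 84 genes higher and 82 lower, of which 84 were raised and 76 lowered in 3n against 2n seeds. With single libraries left out, the higher count ranged from 209 to 286 and the lower count from 270 to 518, raised genes called higher from 195 to 272 and lowered genes called lower from 249 to 469. The lowest values came without 3n *peg2* replicate 1 (209 higher, 285 lower) or without 3n *suvh7-1* replicate 2 (270 lower). The lone library of a group was then assumed to vary like the other groups. Median log2 fold changes ranged from 0.38 to 0.50 for raised genes and from -0.69 to -0.48 for lowered genes over all settings. *PEG3*, not called in any fit, ranged from -0.051 (reversed, without 3n *suvh7-1* replicate 1) to 0.14 with single libraries left out. Of 96 genes named by rule, 85 were called, and 48 of these kept the call under every setting that included them, the rank product aside. The fit on genes with a mean of at least 1 RPKM alone included 79 of the 96. With the replicate block 312 genes were called higher and 403 lower. Deviations of same-numbered 3n *peg2* and 3n *suvh7-1* libraries correlated at 0.25, but the labels give the number no meaning, so it was not used as pairing. With 2 libraries per group and no absolute depth, small changes of low genes may have been missed, which the simulation did not test.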

Other observations

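The third mutant group, 3n *adm-2*, shares no library with the comparison above and gives further values for the genes that separated 3n *peg2* and 3n *suvh7-1* seeds. *CRC* had 9.45 and 9.34 RPKM in 3n *adm-2* seeds, *SESA3* 45.4 and 44.2, *CRA1* 15.04 and 16.8 and *OLEO1* 42.3 and 40.3. In the cytokinesis gene *KN* the values were 107 and 102 RPKM, and in *HIK* 10.9 and 11.9 RPKM. Of the higher genes, *AGL96* had 20.7 and 18.6 RPKM in 3n *adm-2* seeds, *AGL62* 4.82 and 4.31, *TAR1* 4.49 and 4.79 and *CKX2* 20.1 and 19.8. *PHE1* was at 126 and 129 RPKM and *HDG3* at 171 and 175 RPKM. *SADHU1-1*, nearly silent in 3n *peg2* seeds, had 14.6 and 13.1 RPKM in 3n *adm-2* seeds. *PEG2* had 1.34 and 0.908 RPKM and *SUVH7* 3.19 and 3.17 RPKM in this group.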
